A study of Homo sapiens with 3 samples.

Results

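Transcripts of 34 genes that carry glucose into the cell, break it down to lactate or pass it to the pentose phosphate pathway were measured in 3 populations of haemogenic endothelial progenitors. The genes were taken by name from a fixed list of enzymes, carriers and pyruvate dehydrogenase regulators, out of 18345 genes in each table. No filter on their values was used, but the list was chosen with earlier results of these data known. All 34 were found, and all 34 stood above 1 FPKM in every population. FPKM, fragments scaled by transcript length and library size, was assumed as the unit, because no label or header gives it. A complete table of TPM would have the same total in every library, which these tables do not have. TPM listed for only part of the genes could not be told apart from FPKM, and both allow levels of different genes to be compared.

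H1, a long-established line of human embryonic stem cells, was the source of all cells. Culture with activinA (40 ng/ml) plus BMP4 (50 ng/ml) lasted 2 days, and VEGF (40 ng/ml) plus bFGF (50 ng/ml) followed over 3 days. The labels call the samples HEPs of day 4 of haematopoietic differentiation, although these stages add up to more. All populations carried CD31 and CD34 on the surface and were separated by CD105 (endoglin, a co-receptor for TGF-beta family ligands) into negative, low and high groups, here CD105neg, CD105low and CD105high. Each population had 1 library from 1 cell line, so no difference below has a replicate check, and no p-value or standard error can be given.

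Glycolysis splits glucose into pyruvate in the cytosol. Lactate dehydrogenase then reduces pyruvate to lactate, or the pyruvate dehydrogenase complex of mitochondria converts it to acetyl-CoA. The pentose phosphate pathway branches off after hexokinase and makes NADPH and the ribose of nucleotides. Several steps have alternative enzymes encoded by different genes, which differ in tissue distribution and kinetics. Pluripotent stem cells and endothelial cells are both known for a high rate of glycolysis.

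The upstream sequences of 4 genes are shown because their values span the range of the results: ENO2 had the lowest CD105high value relative to CD105neg of all 34 genes, ENO1 and LDHB were the most abundant of those at least 1.5-fold lower, and PGK1 stood at nearly the same level in all 3 libraries. Each runs 5′ to 3′ over the 250 bases before the start that RefSeq lists on GRCh38.p14, in which each of these 4 genes has 1 start. The windows are chr12:6914330-6914579 on the plus strand for ENO2, chr1:8878687-8878936 on the minus strand for ENO1, chr12:21657843-21658092 on the minus strand for LDHB and chrX:78103998-78104247 on the plus strand for PGK1. Capitals mark ACGTG and GCGTG, the core letters of hypoxia response elements, on either strand, where they read CACGT and CACGC on the other strand.
ENO2: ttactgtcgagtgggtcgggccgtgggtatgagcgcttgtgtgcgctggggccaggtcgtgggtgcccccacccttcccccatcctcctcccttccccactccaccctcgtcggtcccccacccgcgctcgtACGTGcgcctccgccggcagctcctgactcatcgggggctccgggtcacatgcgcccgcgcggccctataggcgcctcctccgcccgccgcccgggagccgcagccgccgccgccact
ENO1: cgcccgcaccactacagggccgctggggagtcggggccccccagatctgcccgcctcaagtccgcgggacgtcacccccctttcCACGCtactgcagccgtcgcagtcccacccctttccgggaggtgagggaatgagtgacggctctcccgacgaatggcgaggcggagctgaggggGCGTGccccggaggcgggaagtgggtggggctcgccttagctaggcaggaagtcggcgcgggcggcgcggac
LDHB: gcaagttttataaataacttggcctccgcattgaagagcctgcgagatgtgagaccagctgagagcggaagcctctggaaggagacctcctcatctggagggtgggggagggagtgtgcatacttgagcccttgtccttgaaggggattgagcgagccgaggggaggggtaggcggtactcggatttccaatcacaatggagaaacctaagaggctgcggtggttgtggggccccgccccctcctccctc
PGK1: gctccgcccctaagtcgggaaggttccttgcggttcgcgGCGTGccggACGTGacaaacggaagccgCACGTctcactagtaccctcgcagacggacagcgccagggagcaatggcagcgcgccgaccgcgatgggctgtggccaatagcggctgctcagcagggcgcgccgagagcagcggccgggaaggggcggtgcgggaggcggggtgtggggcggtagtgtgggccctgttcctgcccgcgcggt

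ENO2 held 1 such match, ENO1 held 2, PGK1 held 3 and LDHB held none in this window. Over the 60 windows that RefSeq lists for 31 of the 34 genes, ACGTG occurred in 22 windows (36.7%), against 18.5% of 35116 windows of the same length for all genes. GCGTG occurred in 33.3% of the windows of these genes and in 32.2% of all windows. The palindrome CACGTG, which contains ACGTG, occurred in 13.3% against 6.34%, the GC box GGGCGG in 63.3% against 42.6%, and CCAAT in 33.3% against 32.0%. Both strands were read, and windows of genes with several starts overlap, so these shares are descriptions. PFKFB2, SLC16A1 and SLC2A3 were not in the table.

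The summed values of all genes were 289229, 284824 and 265618 in CD105neg, CD105low and CD105high. ENG, which encodes CD105, stood at 2.12, 8.56 and 13.8 FPKM, in the order of the sort, and CD34 at 21.0, 39.2 and 43.2 FPKM and PECAM1 (CD31) at 29.9, 41.9 and 50.1 FPKM, although the value column of the CD105neg library carries a name that reads as CD105 positive. The spacing of the lowest values, multiplied by transcript length, put CD105low at 1.11 times and CD105high at 1.04 times the depth of CD105neg. On that spacing the lowest value of the 34 genes, 3.39 FPKM for PFKFB2 in CD105high, would rest on about 271 fragments for each kilobase of transcript, a counting error of about 6.08%. This is a rough scale and covers counting error only. The spread between cultures and sorts was not measured.

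Summed over the set, transcripts of the pathway were less abundant with more CD105. The 34 values summed to 5119 (CD105neg), 4346 (CD105low) and 3773 FPKM (CD105high), which was 1.77%, 1.53% and 1.42% of all values. CD105high therefore held 73.7% of the CD105neg sum, whereas all other genes together held 92.2%. For CD105low the corresponding figures were 84.9% and 98.7%. Such sums rest mostly on the abundant genes GAPDH, ENO1, LDHB and TPI1, at 1299, 919, 532 and 510.0 FPKM in CD105neg. At the median of the 34 genes, CD105high was 1.16-fold lower than CD105neg. In bulk samples of this kind, fewer cells of a type and less RNA per cell cannot be told apart.

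**Figure D1:**
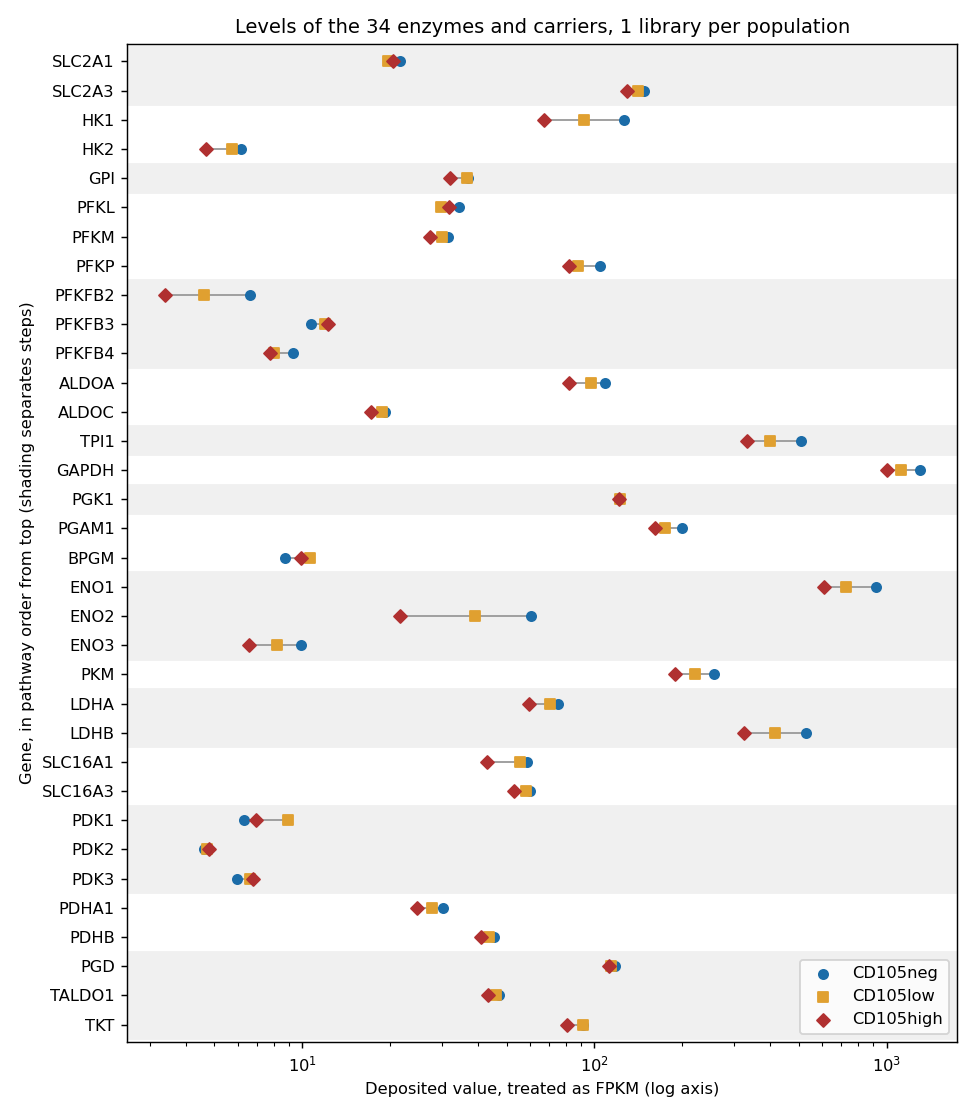
Deposited value (x axis, log scale, treated as FPKM) of each of the 34 genes (y axis, in pathway order) in CD105neg (circles), CD105low (squares) and CD105high (diamonds), 1 library each, with a line from the lowest to the highest. ENO2, HK1 and PFKFB2 have the longest lines, and the 3 points of PGK1 lie on each other between 121 and 122 FPKM.

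Between CD105high and CD105neg, 6 of the 34 genes (17.6%) were at least 1.5-fold lower on the value + 1 scale, and none was at least 1.5-fold higher. Over the 11343 genes that reached 1 FPKM in at least 1 library, 6.88% were lower and 5.65% higher by the same rule. The 6 genes were ENO2, HK1, PFKFB2, LDHB, TPI1 and ENO1, which act at hexokinase, at the control of phosphofructokinase and in the triose section from triose phosphate isomerase to lactate. The median log2 fold change of the 34 genes was -0.22, against -0.09 over all genes measured. Of the 34, 29 (85.3%) lay below 0, against 61.0% of all genes. With every library scaled to the same total, 24 of the 34 lay below 0, and the share of all genes below 0 is not given on that scale.

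Abundant genes as a class also stood below the median of all genes in CD105high. Of the 425 genes with a mean of at least 100 FPKM over the libraries, 9.88% were at least 1.5-fold lower and the median was -0.19 on the log2 scale. The 9 enzymes and carriers at that level had 3 members lower (LDHB, TPI1 and ENO1) and a median of -0.38. The 17 with a mean from 10 to 100 FPKM had a median of -0.19, against -0.09 over 5053 genes, and the 8 below 10 FPKM had -0.09, against -0.08 over 5865 genes. When every library was scaled to the same total, the median of all genes measured moved from -0.09 to 0.02 and that of the 34 genes from -0.22 to -0.11. On that scale 3 of the 34 stayed at least 1.5-fold lower, ENO2, HK1 and PFKFB2. No share over all genes is given on that scale, and the 6.88% above belongs to the deposited values. LDHB stood at -0.58, TPI1 at -0.49 and ENO1 at -0.46 (log2). Totals were set to 1000000 with the 1 added to each value unchanged, so that 1 weighed less than on the deposited values. PFKFB2, a gene of low level, stood at -0.80 on both scales.

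**Figure D2:**
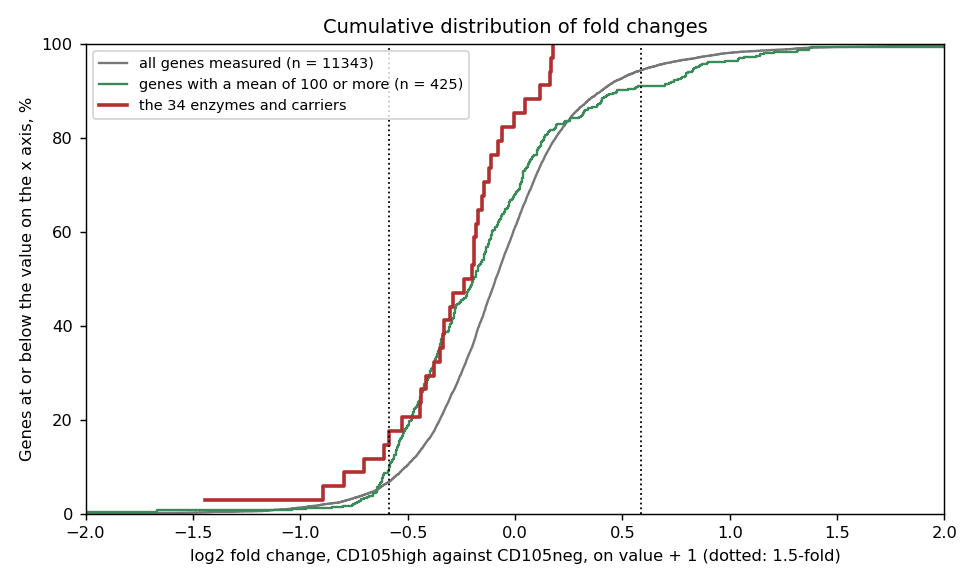
Percent of genes (y axis) at or below each log2 fold change of CD105high against CD105neg on value + 1 (x axis), for all 11343 genes measured (grey), the 425 genes with a mean of 100 FPKM or more (green) and the 34 enzymes and carriers (red), with dotted lines at 1.5-fold. The red curve ends at 0.18, short of the upper dotted line, and runs close to the green curve from about -0.5 to -0.2.

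In CD105low against CD105neg, ENO2 alone of the 34 was at least 1.5-fold lower, against 2.18% of all genes, and none was higher, against 4.13%. The median was -0.09, with 0.02 over all genes. In CD105high against CD105low, again ENO2 alone was lower, against 2.19% of all genes, and none was higher, against 1.18%, with medians of -0.15 and -0.10. A count of 1 in 34 is near the share over all genes in both comparisons. The comparisons share libraries in pairs and are given side by side for that reason. Values of 25 of the 34 genes (73.5%) went down in order from CD105neg through CD105low to CD105high, against 36.4% of all genes, and those of 3 genes went up in order, against 17.6%. With equal totals, 20 of the 34 went down in order, against 26.7% of all genes.

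Glucose enters through facilitative carriers. SLC2A3, which encodes the high-affinity carrier GLUT3, stood at 147, 141 and 129 FPKM in CD105neg, CD105low and CD105high, and SLC2A1, which encodes GLUT1, at 21.7, 19.6 and 20.5 FPKM. SLC2A3 thus made up 87.2%, 87.8% and 86.3% of the 2 carriers in all populations. Of the sampled sequence of SLC2A3, 18.5% also occurs in other genes, most of it in the neighbouring copy SLC2A14, so its level is less certain.

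Hexokinase traps glucose by phosphorylation, and it was the step with the lowest CD105high sum relative to CD105neg. HK1 (ENSG00000156515.21), the housekeeping form, stood at 126 (CD105neg), 92.2 (CD105low) and 67.2 FPKM (CD105high), and CD105high was 1.86-fold lower than CD105neg (log2 -0.90). The step from CD105neg to CD105low and that from CD105low to CD105high were each -0.45 on the log2 scale. HK2, the inducible form, was far less abundant, at 6.15, 5.74 and 4.68 FPKM (log2 -0.33 for CD105high against CD105neg). The 2 genes summed to 132, 97.9 and 71.9 FPKM, so CD105high held 54.4% of the CD105neg level. HK1 made up 95.3%, 94.1% and 93.5% of the sum. Little of the sampled HK1 sequence (0.12%) is shared with other genes. Its exons overlap 49 bases of a pseudogene on the other strand, RPS15AP28.

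Steps between hexokinase and aldolase stood closer to the level of all other genes. GPI, which interconverts glucose and fructose phosphates, stood at 37.0, 36.5 and 32.1 FPKM. Among the phosphofructokinases, which catalyse the committed step, the platelet form PFKP led with 104, 87.6 and 81.6 FPKM. The liver form PFKL followed with 34.4, 29.8 and 31.7 FPKM, and the muscle form PFKM with 31.5, 30.002 and 27.4 FPKM. Their sum in CD105high was 82.8% of CD105neg, and the share of PFKP was 61.2%, 59.4% and 57.9%.

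The PFKFB genes encode bifunctional enzymes that set the level of the main activator of phosphofructokinase, and they went in different directions. PFKFB2 (ENSG00000123836.14), known as the heart form, stood at 6.62, 4.59 and 3.39 FPKM and was 1.74-fold lower in CD105high than in CD105neg (log2 -0.80). PFKFB3, the form with the strongest kinase activity and one used by sprouting endothelial cells, stood at 10.7, 11.9 and 12.2 FPKM, a log2 fold change of 0.18 that is short of 1.5-fold. PFKFB4 stood at 9.28, 8.004 and 7.73 FPKM. The 3 genes together stood at 26.6, 24.5 and 23.4 FPKM, so their sum differed less than their make-up. PFKFB3 held 40.2% of that sum in CD105neg, 48.6% in CD105low and 52.4% in CD105high, while PFKFB2 held 24.9%, 18.7% and 14.5%. The ratio of PFKFB3 to PFKFB2 was 1.62, 2.60 and 3.61. Such ratios within a library do not depend on how the libraries are scaled. With a pseudocount of 5, the log2 value of PFKFB2 was -0.47, short of 1.5-fold.

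Aldolase splits the hexose into triose phosphates. ALDOA, the muscle and general form, stood at 109, 97.04 and 81.6 FPKM, and ALDOC, the brain form, at 19.2, 18.7 and 17.1 FPKM. ALDOA is the least certain value among the 34, since 81.8% of its sampled sequence also occurs in other genes, above all in AC093512.2. TPI1 (ENSG00000111669.14), which interconverts the trioses, stood at 510.0 (CD105neg), 399 (CD105low) and 334 FPKM (CD105high), 1.53-fold lower in CD105high than in CD105neg (log2 -0.61). Of its sampled sequence, 25.7% is shared, most of it with the pseudogene TPI1P1.

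GAPDH, which oxidises the triose and yields NADH, was the most abundant of the 34 transcripts, at 1299, 1120.5 and 1001 FPKM. It ranked 8, 9 and 10 among all genes of the respective libraries. CD105high stood at 77.1% of CD105neg (log2 -0.38), short of 1.5-fold, and 36.3% of the sampled sequence is shared. This gene is often used to normalise measurements between samples, and here its level went down in the order of CD105. PGK1, the next enzyme and the first to yield ATP, stood at 121, 122 and 121 FPKM, so the ratio of GAPDH to PGK1 was 10.7, 9.18 and 8.27. The sign of the PGK1 difference between CD105high and CD105neg changes with equal totals. PGAM1, the mutase that follows, stood at 199, 175 and 161 FPKM with 41.9% of its sampled sequence shared. BPGM, which makes the bisphosphoglycerate that tunes haemoglobin in red cells, stood at 8.71, 10.6 and 9.90 FPKM and was highest in CD105low.

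Enolase showed the largest difference of a single gene. ENO2 (ENSG00000111674.8), the gamma form known from neurons and neuroendocrine cells, stood at 60.4 (CD105neg), 39.1 (CD105low) and 21.6 FPKM (CD105high). It was 2.72-fold lower in CD105high than in CD105neg (log2 -1.44), and it ranked 766, 1323 and 2545 among all genes of these libraries. The log2 fold change was -0.62 from CD105neg to CD105low and -0.83 from CD105low to CD105high. The first of these is close to 1.5-fold and stood at -0.57 with a pseudocount of 5. None of the sampled ENO2 sequence was shared and no exon overlapped a gene on the other strand. ENO1 (ENSG00000074800.13), the general alpha form, stood at 919, 727 and 611 FPKM, just at the 1.5-fold mark for CD105high against CD105neg (log2 -0.59). ENO3, the beta form of muscle, stood at 9.90, 8.16 and 6.57 FPKM (log2 -0.53), just short of that mark and at it with a pseudocount of 0.1. All 3 enolase genes were therefore lowest in CD105high, ENO2 more so than the others. The share of ENO2 in the step was 6.11%, 5.05% and 3.37%, and the ratio of ENO1 to ENO2 was 15.2, 18.6 and 28.3.

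PKM, the pyruvate kinase of most cells, stood at 256.2, 221 and 189 FPKM (log2 -0.44 for CD105high against CD105neg). The tables give 1 value per gene, so its splice forms were not analysed here. Of the lactate dehydrogenase subunits, LDHB, the heart form, was the more abundant in every library. LDHB (ENSG00000111716.12) stood at 532, 414 and 326 FPKM and was 1.63-fold lower in CD105high than in CD105neg (log2 -0.70). LDHA, the muscle form that favours lactate production, stood at 75.005, 70.2 and 59.5 FPKM (log2 -0.33). The ratio of LDHB to LDHA was 7.09, 5.90 and 5.48, and the share of LDHA in the step was 12.4%, 14.5% and 15.4%. These ratios are less certain, since 54.1% of the sampled LDHB sequence occurs in other genes, most of it in AC010197.2, and 10.1% of LDHA, most of it in LDHAP4.

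Lactate and pyruvate leave through monocarboxylate carriers. SLC16A1, which encodes MCT1, stood at 58.8, 55.6 and 43.0 FPKM (log2 -0.44), and SLC16A3, which encodes the lactate exporter MCT4, at 60.0, 58.4 and 53.1 FPKM (log2 -0.17). The 2 carriers were nearly equal in CD105neg, and SLC16A1 made up 49.5%, 48.8% and 44.7% of their sum.

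**Figure D3:**
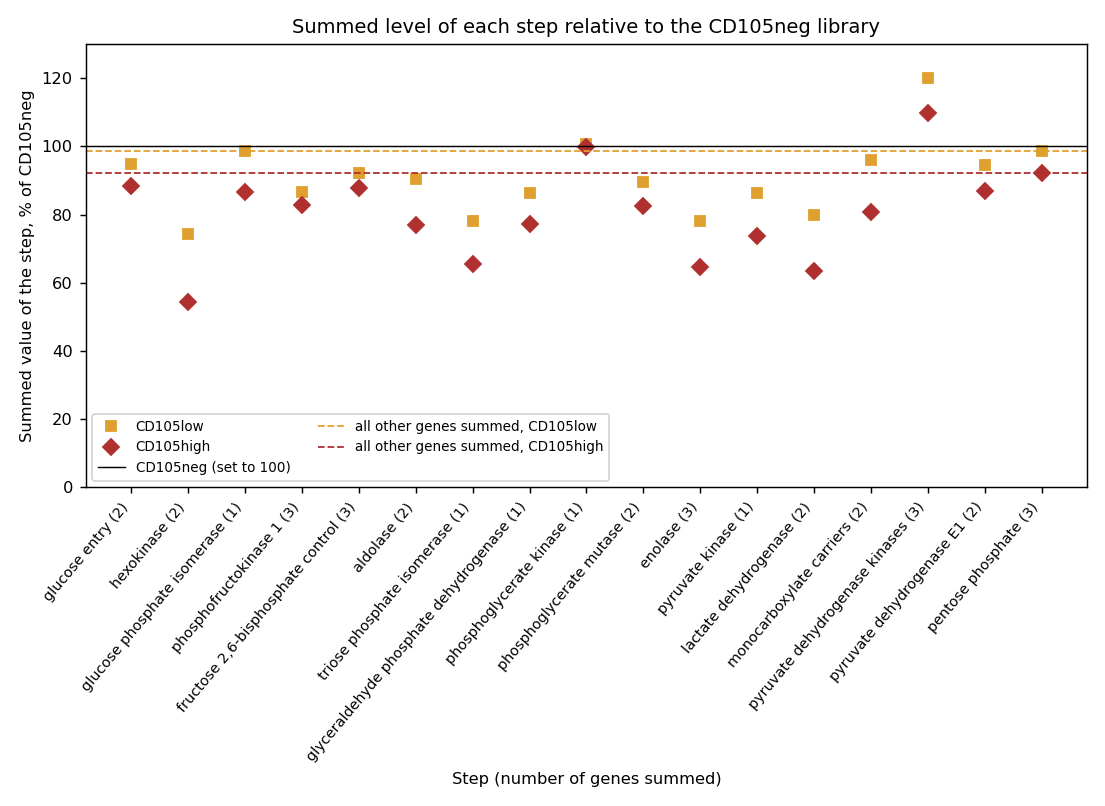
Summed value of the genes of each of the 17 steps in percent of CD105neg (y axis), in CD105low (squares) and CD105high (diamonds), with dashed lines at the sums of all other genes (98.7% and 92.2%). Hexokinase, triose phosphate isomerase, enolase and lactate dehydrogenase stand lowest in CD105high, at 54.4%, 65.5%, 64.7% and 63.5%, and the pyruvate dehydrogenase kinases lie above 100 in both populations.

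The pyruvate dehydrogenase kinases did not share the downward order of most glycolytic enzymes. They switch the complex off by phosphorylating its E1 subunit. PDK1, the hypoxia-inducible kinase, stood at 6.32, 8.95 and 6.93 FPKM and was highest in CD105low (log2 0.44 against CD105neg, short of 1.5-fold). PDK3 stood at 5.96, 6.62 and 6.80 FPKM and PDK2 at 4.60, 4.70 and 4.79 FPKM. The PDK2 value is less certain because 28.7% of the sampled sequence, all with SAMD14 on the other strand, is shared. The 3 kinases summed to 16.9, 20.3 and 18.5 FPKM, the one step whose sum was above CD105neg in both other populations. The E1 subunit genes stood at 30.3, 27.7 and 24.6 FPKM for PDHA1 and 45.3, 43.6 and 40.9 FPKM for PDHB, so CD105high held 86.8% of their CD105neg sum. Of the PDHA1 sequence, 19.9% is shared, all with MAP3K15 on the other strand.

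The pentose phosphate enzymes differed little between the libraries. PGD, the dehydrogenase of phosphogluconate that yields NADPH, stood at 118, 114 and 113 FPKM. TKT and TALDO1, the transketolase and transaldolase that link the pentoses back to glycolysis, stood at 91.1, 91.6 and 80.3 FPKM and at 47.1, 46.0 and 43.2 FPKM. Their sum in CD105high was 92.3% of CD105neg, beside 92.2% for all other genes together. The signs of PGD and TALDO1 for CD105high against CD105neg, and those of SLC2A1 and PFKL, change with equal totals, so no direction is given for them.

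**Figure D4:**
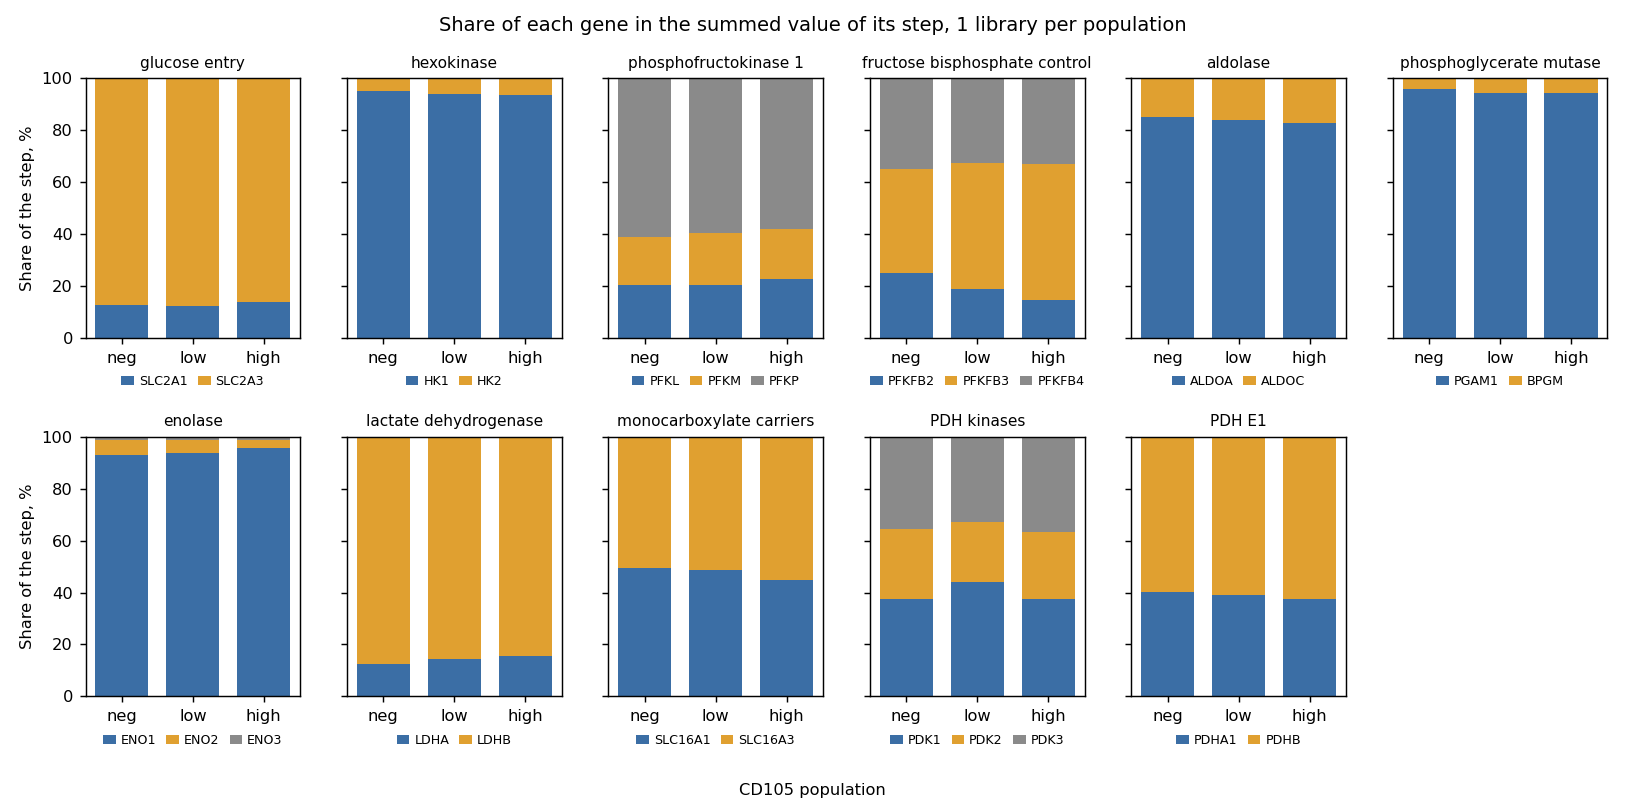
Share (y axis, percent) of each gene in the summed value of its step in the CD105neg, CD105low and CD105high libraries (x axis), for the 11 steps with more than 1 gene other than the pentose phosphate enzymes. The largest shift is in fructose bisphosphate control, where PFKFB3 goes from 40.2% to 52.4%. In every step shown, this one included, the most abundant gene is the same in all 3 libraries.

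The other genes of the pathway, in 8 lists of carriers, isoforms and neighbouring routes, were compared by the same rule. Of 150 genes fixed, 111 reached 1 FPKM in at least 1 library. Between CD105high and CD105neg 4 of these were at least 1.5-fold higher and 5 lower, with a median of -0.15. These 2 counts are near or below the shares over all genes, 5.65% higher and 6.88% lower. At equal totals 11 were higher, but the pseudocount also weighs less there, and no share over all genes is given on that scale. The list of 12 measured genes of the oxidative pentose phosphate route and NADPH supply had 1 higher and 1 lower and a median of 0.01. RPE, which interconverts pentose phosphates, stood at 23.8, 22.2 and 14.7 FPKM, and H6PD, a glucose dehydrogenase of the endoplasmic reticulum, at 3.13, 4.51 and 5.19 FPKM. Among 3 further glycolytic isoforms and 14 further carriers that were measured, none passed 1.5-fold in any comparison.

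The genes that admit pyruvate to mitochondria differed in direction among themselves. Of the 9 measured, 2 were at least 1.5-fold higher and 1 lower in CD105high than in CD105neg. Over all genes measured, 5.65% were higher and 6.88% lower, and a list of 9 is too small to set against these shares. PDP1, a phosphatase that reactivates pyruvate dehydrogenase, stood at 8.23, 12.9 and 16.3 FPKM (log2 0.91), and PDPR, a regulatory subunit of that phosphatase, at 5.61, 9.96 and 9.91 FPKM (log2 0.72). MPC1, a subunit of the mitochondrial pyruvate carrier, stood at 10.2, 6.29 and 5.64 FPKM (log2 -0.75). None of the 18 measured citric acid cycle genes was 1.5-fold apart between CD105high and CD105neg (median -0.19). ACO1, the cytosolic aconitase, was 1.5-fold lower in CD105high than in CD105low, at 9.24 against 14.4 FPKM. In that comparison 2.19% of all genes were lower.

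The lists that follow are small, and 1 gene past 1.5-fold in about 19 is near the share over all genes. In the list of gluconeogenesis and glycogen genes the 1 of 19 that was lower was PHKA1, a subunit of phosphorylase kinase, at 2.06, 1.22 and 0.93 FPKM (median -0.15). In the list of side branches, 2 of 17 were lower (median -0.31), KHK, the fructokinase, at 2.87, 1.61 and 1.09 FPKM and GPD2, the mitochondrial glycerol phosphate dehydrogenase, at 21.4, 15.2 and 13.4 FPKM. GPD1L stood at 1.54, 1.65 and 0.73 FPKM and was 1.5-fold lower in CD105high than in CD105low only. Of 19 hypoxia-induced genes outside glycolysis, 1 was higher and none lower, and the median was 0.00. EGLN1, an oxygen-sensing prolyl hydroxylase, stood at 3.49, 5.47 and 7.09 FPKM (log2 0.85), and ANGPTL4 at 5.23, 8.87 and 7.55 FPKM, 1.5-fold higher in CD105low than in CD105neg. For CD105high against CD105neg the median was 0.00 in this list, -0.22 in the 34 enzymes and carriers and -0.09 over all genes measured. A part of hypoxia in these values was not tested.

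Cell type markers in 5 lists were counted by the same rule, beside 6.88% lower and 5.65% higher over all genes measured. Of 16 pan-endothelial markers, 14 were at least 1.5-fold higher in CD105high than in CD105neg and none was lower, and they summed to 1509, 2182 and 2341 FPKM. Among the most abundant, KDR, the main VEGF receptor, stood at 430.5, 644 and 713 FPKM and PLVAP at 118, 246 and 296 FPKM, while EGFL7 stood at 558, 630 and 528 FPKM. Erythroid and megakaryocyte markers had 10 of 11 measured members lower and none higher, and the 20 with a value summed to 110, 65.0 and 50.0 FPKM, with SLC4A1 at 0 in all libraries. RHAG stood at 26.3, 10.9 and 5.71 FPKM and HBE1 at 10.9, 2.50 and 1.09 FPKM, whereas GYPC stood at 35.1, 36.3 and 35.2 FPKM.

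Mesenchymal and mural markers had 4 of 9 lower and none higher (sums of 496, 470.4 and 395 FPKM, COL1A2 at 216, 199 and 177 FPKM). RGS5, the next most abundant, was highest in CD105low, at 114, 124 and 111 FPKM, and TAGLN stood at 77.5, 66.1 and 41.9 FPKM. Leukocyte markers had 2 of 8 lower and none higher (sums of 74.2, 64.5 and 51.1 FPKM, led by LAPTM5 at 51.6, 44.1 and 35.5 FPKM), and none of the 12 was at 0 in all libraries. LCP1 stood at 5.14, 4.47 and 3.64 FPKM and CD74 at 3.93, 3.84 and 3.13 FPKM. Markers of pluripotent and epithelial cells had 1 of 10 lower and none higher (sums of 111, 102 and 89.9 FPKM), a count near the 6.88% lower over all genes. Here DNMT3B stood at 58.7, 50.3 and 43.4 FPKM, DPPA4 at 30.3, 32.8 and 30.5 FPKM and EPCAM at 5.46, 4.02 and 3.44 FPKM. These sums of the erythroid, leukocyte, mesenchymal and pluripotent lists went down in the same order as ENO2, HK1 and LDHB, and their part in the values of the enzymes was not tested.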

How the data were processed

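RNA-seq libraries of 3 populations, 1 each, were analysed from the deposited tables of 1 value per gene. No label or header states the unit, and the values the authors deposited were taken to be FPKM. Per the submitters' processing notes BWA, Bowtie, RSEM and hg19 were used, without versions or roles, and annotation and filters are not given in the sources used. Per the labels' protocols, libraries were made with the TruSeq RNA chemistry from 2 ug of total RNA. This chemistry keeps no strand, so reads of overlapping genes on opposite strands, which 17 of the 34 genes have, cannot be told apart.

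Fold changes were computed on the value + 1, and genes reaching 1 FPKM in any library were counted at 1.5-fold. The counting was run on values with fold changes put in without noise. Its outcome there is fixed by arithmetic, so this checks the code only. With 1 library per group no test was made. Shared sequence was the share of 50-base pieces, taken every 40 bases from GENCODE 29 transcripts, that occur in another gene on either strand, and genes at 10% or more count as sharing (9 of the 34). The half-step of the lowest values was the spacing, on genes with 1 transcript, that put the most values within 0.08 of a whole multiple (61.5%, 64.3% and 62.1%). All 34 genes were named whatever their values, and of each other list up to 4 genes past 1.5-fold (markers: the 3 most abundant). Genes and lists were chosen with earlier results of these data known. Alternatives were the pseudocount, the minimum value, centring, equal totals, the fold and shared sequence. Python 3.11.15, pandas 2.3.3, numpy 2.4.6 and numba 0.67.0 were used.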

Additional observations from a re-analysis of the deposited data

How the results depend on the processing

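ENO2 and HK1 stayed 1.5-fold lower in CD105high than in CD105neg under every alternative at that fold that kept them in the set. At 2-fold, ENO2 alone was lower (1 of 34). Equal totals left 3 of 34 and a median of -0.11, with no share over all genes given on that scale. Genes with a mean of 100 FPKM or more, a setting chosen after seeing the data, gave 3 and -0.38. That setting left out ENO2 and HK1, with means of 40.3 and 95.1 FPKM. Centring took TPI1 (-0.52) and ENO1 (-0.50) short of 1.5-fold. The single gene lower in CD105low than in CD105neg was lost with a pseudocount of 5 and at 2-fold (0 in each), as was the one lower in CD105high than in CD105low at 2-fold (0). Without genes that share sequence, 4 of 25 were lower in CD105high than in CD105neg.

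For the other pathway genes, the numbers lower and higher in CD105high than in CD105neg were 10 and 7 with a pseudocount of 0.1, 0 and 1 with 5, 3 and 1 at a minimum of 10 FPKM, 2 and 7 when centred and 0 and 0 at 2-fold; with equal totals 11 were higher and the median was -0.036. In CD105low against CD105neg they were 3 and 5 with a pseudocount of 0.1, 3 and 5 with equal totals, and 0 and 0 with a pseudocount of 5 or at 2-fold, and 1 was higher at a minimum of 10 FPKM. In CD105high against CD105low the number lower was 4 with a pseudocount of 0.1, 1 at a minimum of 10 FPKM and with equal totals, and 0 with a pseudocount of 5, when centred or at 2-fold. Signs of single genes were followed under these settings for the enzymes and carriers only, not for these other pathway genes. Among the enzymes and carriers, no value past 1.5-fold changed sign. That outcome was fixed beforehand and is no check. A pseudocount cannot turn a sign, and centring and equal totals shifted values by far less than 1.5-fold. No paired analysis was possible because each group has 1 library, and the spread between cultures was not measured.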
